A study of Homo sapiens with 15 samples.

Results

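The comparison described here is TGF-beta (TGFb) with FT895 for 12 h against TGFb with vehicle for 12 h, in HK-2 cells. It takes in 6 of the 15 libraries of the series, 3 in each group, and 12467 of the 24880 loci in the expression table, those with at least 1 FPKM in 3 or more libraries. FPKM is the number of fragments of a gene scaled by its length and by the library's mapped total. HK-2 is an immortalised line derived from human proximal tubule epithelium, and the cells are labelled wild type. One group received TGFb at 2 ug/ml and FT895, an inhibitor of the histone deacetylase HDAC11, and the other received the same TGFb and the solvent DMSO (here TGFb alone). The other 9 libraries are TGFb with FT895 for 1 h, TGFb with DMSO for 1 h, and a mock group given PBS and labelled 0 h. No source used here states how much FT895 was added. All cells with FT895 also received TGFb, so an effect of FT895 on the TGFb response and one of FT895 by itself cannot be told apart. Nothing in the labels tells whether replicate libraries are of separate cultures, so p-values measure the spread between these libraries, which may be technical.

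HDAC11 is the only class IV deacetylase, and it removes long fatty acyl groups from lysine more efficiently than acetyl groups. TGFb acts through receptor kinases and SMAD proteins, and in tubule cells it is known for switching on matrix and cytoskeletal genes and lowering epithelial ones. HMOX1 encodes heme oxygenase, which splits heme into biliverdin, carbon monoxide and iron and is a classical stress gene of the tubule. DDIT4 (also called REDD1) restrains the growth kinase complex mTORC1 when oxygen, energy or amino acids run short. Both genes respond to several stress pathways.

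The 6 libraries of 12 h were much alike in summed level and in the ranking of genes. Their summed FPKM ran from 387570 to 396302 with FT895 and from 386532 to 397888 with TGFb alone, and read depth is unknown. Spearman correlations across genes, which are not independent replicates, were at least 0.992 within the FT895 group, at least 0.991 within the TGFb group and 0.991 to 0.992 between the groups. The TGFb group was split on the main axis of variation of these 6 libraries (first principal component, 26.7% of the variance). Replicate 1 of TGFb alone lay at -10.03, and replicates 2 and 3 at 10.8 and 9.76. The FT895 libraries lay between them, at -4.02, -6.17 and -0.388. On the second component (22.7% of the variance) the groups did not overlap. The FT895 libraries lay at 1.87, 3.98 and 12.07 there, and the TGFb libraries at -10.8, -1.87 and -5.26. Markers of the proximal tubule summed to 1658 to 1702 FPKM with FT895 and 1641 to 1697 FPKM with TGFb alone. 9 of the 16 proximal tubule markers passed the filter on low values, and LRP2 and SLC22A6, which define the mature tubule, were listed at 0 in all 15 libraries. Markers of other cell types were at low levels. Fibroblast and pericyte markers (3 of 14 passed; PDGFRA and PDPN at 0) summed to 54.1 to 56.1 FPKM with FT895 and 58.8 to 65.4 with TGFb alone. Most of that sum was COL1A1, at 40.5 FPKM with FT895, 45.4 with TGFb alone and 2.44 in mock. Distal nephron and podocyte markers (3 of 16 passed; NPHS1 and UMOD among 9 at 0) summed to 15.03 to 15.8 FPKM with FT895 and 17.99 to 19.04 with TGFb alone. Endothelial markers (2 of 13 passed; VWF, KDR and FLT1 at 0) summed to 15.8 to 18.5 FPKM with FT895 and 18.5 to 20.2 with TGFb alone, and leukocyte markers (2 of 14 passed; CD3E, CD3D, MS4A1 and FCGR3A among 5 at 0) to 36.9 to 40.8 and 36.0 to 40.8. Most of the leukocyte sum was CD68, at 35.3 FPKM with FT895 and 34.8 with TGFb alone. The part of these marker levels in the results was not tested. Outside this comparison, replicate 1 of TGFb 1 h stood apart, with a residual spread of 0.211 on the log2 scale against 0.107 to 0.156 in the other 14 libraries.

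The 12 h transcriptome with FT895 was close to that of TGFb alone, and 2 genes passed the test: HMOX1 and DDIT4, both higher with FT895. The test was limma on log2(FPKM + 1), fitted to all 15 libraries with Benjamini-Hochberg adjustment over the 12467 genes, and a gene was called at an adjusted p under 0.05. The calls are 0.0160% of the genes. Fitted to the 6 libraries alone, the same test called HMOX1 only, 0.00802% of the genes. An unadjusted p under 0.05 was reached by 471 genes in the higher direction (3.78%) and 296 in the lower (2.37%), and 26 genes had an adjusted p under 0.1, of which 15 were higher and 11 lower. The 3 FT895 libraries all lay above the 3 TGFb libraries in 976 genes (7.83%) and all lay below them in 758 (6.08%). The median log2 change was 0.0095, and the values at the 5th and 95th percentiles were -0.17 and 0.19. The 95% interval of the change, not adjusted for the number of genes, lay inside -0.5 to 0.5 for 11496 genes (92.2%) and inside -1 to 1 for 12339 (99.0%). Differences smaller than these intervals were not resolved.

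**Figure D1:**
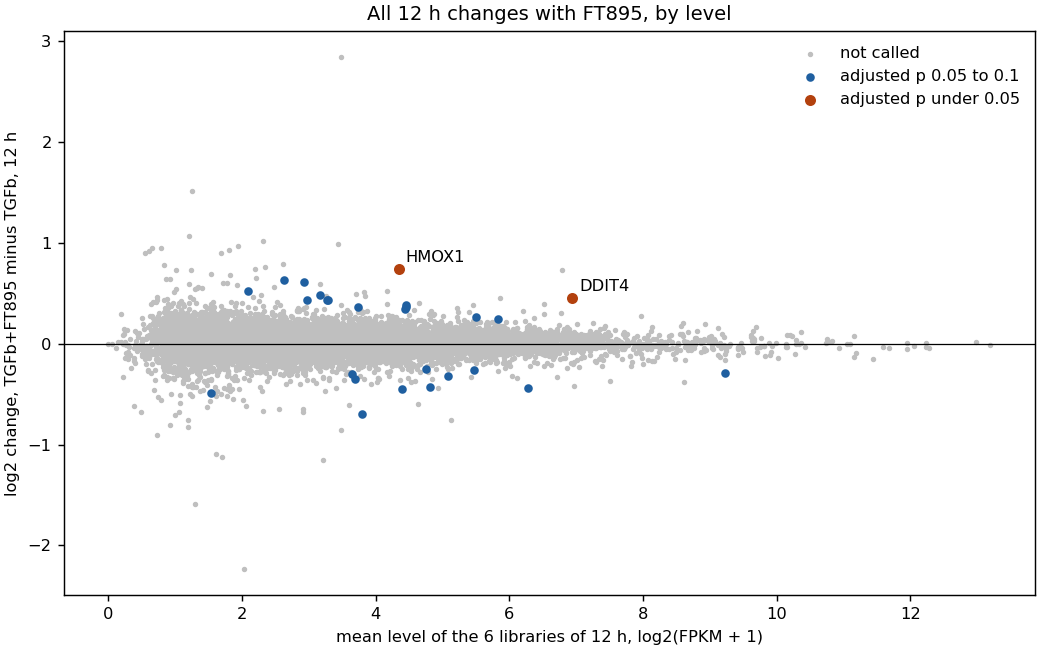
Log2 change with FT895 at 12 h (TGFb+FT895 minus TGFb, vertical axis) against the mean level of the 6 libraries of 12 h (horizontal axis, log2(FPKM + 1)) for 12467 genes. HMOX1 and DDIT4, called at an adjusted p under 0.05, are named; blue points are the 24 genes with an adjusted p between 0.05 and 0.1, and the widest changes are of genes with low or scattered values.

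Size and certainty did not go together. A total of 9 loci differed by at least 1 log2 unit, none of them was called, and the smallest adjusted p among them was 0.629. The largest difference, 2.84, was that of the readthrough gene NME1-NME2, with 10.5, 19.6 and 19.1 FPKM with FT895 and 11.9, 0 and 0 FPKM with TGFb alone. ADORA2A, an adenosine receptor gene, had 2.80, 0.319 and 0.282 FPKM with FT895 and 2.96, 2.90 and 3.02 with TGFb alone (log2 change -1.09, adjusted p = 0.629). In both cases 1 library disagreed with the other members of its own group. Reads of overlapping genes such as NME1 and NME2 can be split in different ways, so this value is uncertain.

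HMOX1 (chromosome 22, 35380361 to 35394214, plus strand, GRCh38) had 24.1, 24.5 and 24.6 FPKM with FT895, against 14.97, 14.5 and 13.1 FPKM with TGFb alone. All FT895 libraries lay above all TGFb libraries, and the groups were separated by more than either group's spread. The log2 change was 0.74 (95% interval 0.59 to 0.89, adjusted p = 3.91e-04), a rise of 1.67-fold in FPKM + 1, and with the 6 libraries alone the adjusted p was 0.0151. At 1 h HMOX1 had 15.6 ± 0.802 FPKM with FT895 and 13.4 ± 0.497 with TGFb alone (mean ± SD, n = 3), which was not called, and mock cells had 7.69 ± 0.738. The FT895 difference was larger at 12 h than at 1 h by 0.54 log2 units (adjusted p = 0.046).

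No other gene of iron and heme handling was called. Of the 19 tested members of that list, HMOX1 was the only one called, 2 had an unadjusted p under 0.05 in the higher direction and 1 in the lower, and the median log2 change was -0.010. TFRC, the transferrin receptor that brings iron into the cell, had 61.9, 66.4 and 66.2 FPKM with FT895 and 97.98, 83.8 and 83.5 with TGFb alone (log2 change -0.44, 95% interval -0.60 to -0.28, adjusted p = 0.0552). The FT895 libraries of TFRC lay below every TGFb library, but the gene missed the threshold. HMOX2, the constitutive heme oxygenase, averaged 11.99 FPKM with FT895 and 10.3 with TGFb alone (log2 change 0.21, adjusted p = 0.77). The ferritin chains, which store iron, were high and close between the groups: FTH1 averaged 1364 FPKM with FT895 and 1259 with TGFb alone, and FTL 1169.7 FPKM with FT895 and 1106 with TGFb alone, with log2 changes of 0.11 and 0.082. The iron exporter SLC40A1 averaged 1.98 FPKM with FT895 and 2.00 with TGFb alone. Among 27 tested genes of the NRF2 antioxidant program HMOX1 was again the only call, 3 had an unadjusted p under 0.05 in the higher direction and 0 in the lower, and the median was 0.059. NQO1, a quinone reductase and standard NRF2 target, averaged 35.8 FPKM with FT895 and 33.9 with TGFb alone (log2 change 0.073), and TXNRD1, a thioredoxin reductase, averaged 108 FPKM with FT895 and 102 with TGFb alone (log2 change 0.086).

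DDIT4 (chromosome 10, 72273920 to 72276036, plus strand, GRCh38) had 133, 137 and 151 FPKM with FT895, against 99.7, 107 and 99.2 FPKM with TGFb alone. The groups did not overlap, and the third FT895 library was the highest. The log2 change was 0.45 (95% interval 0.33 to 0.58, adjusted p = 0.0115), a rise of 1.37-fold in FPKM + 1. The call was lost in the fit of the 6 libraries alone (adjusted p = 0.149) and without replicate 1 or 3 of TGFb 12 h or replicate 3 of TGFb+FT895 12 h (adjusted p = 0.0968, 0.0712 and 0.0843), with the change between 0.40 and 0.44. It was also lost without the 3 mock libraries (adjusted p = 0.0503). At 1 h the direction was the opposite: 66.8, 67.4 and 66.6 FPKM with FT895 and 108, 98.9 and 109 with TGFb alone (log2 change -0.64, adjusted p = 1.56e-04). Mock cells had 76.7, 77.2 and 72.005 FPKM.

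**Figure D2:**
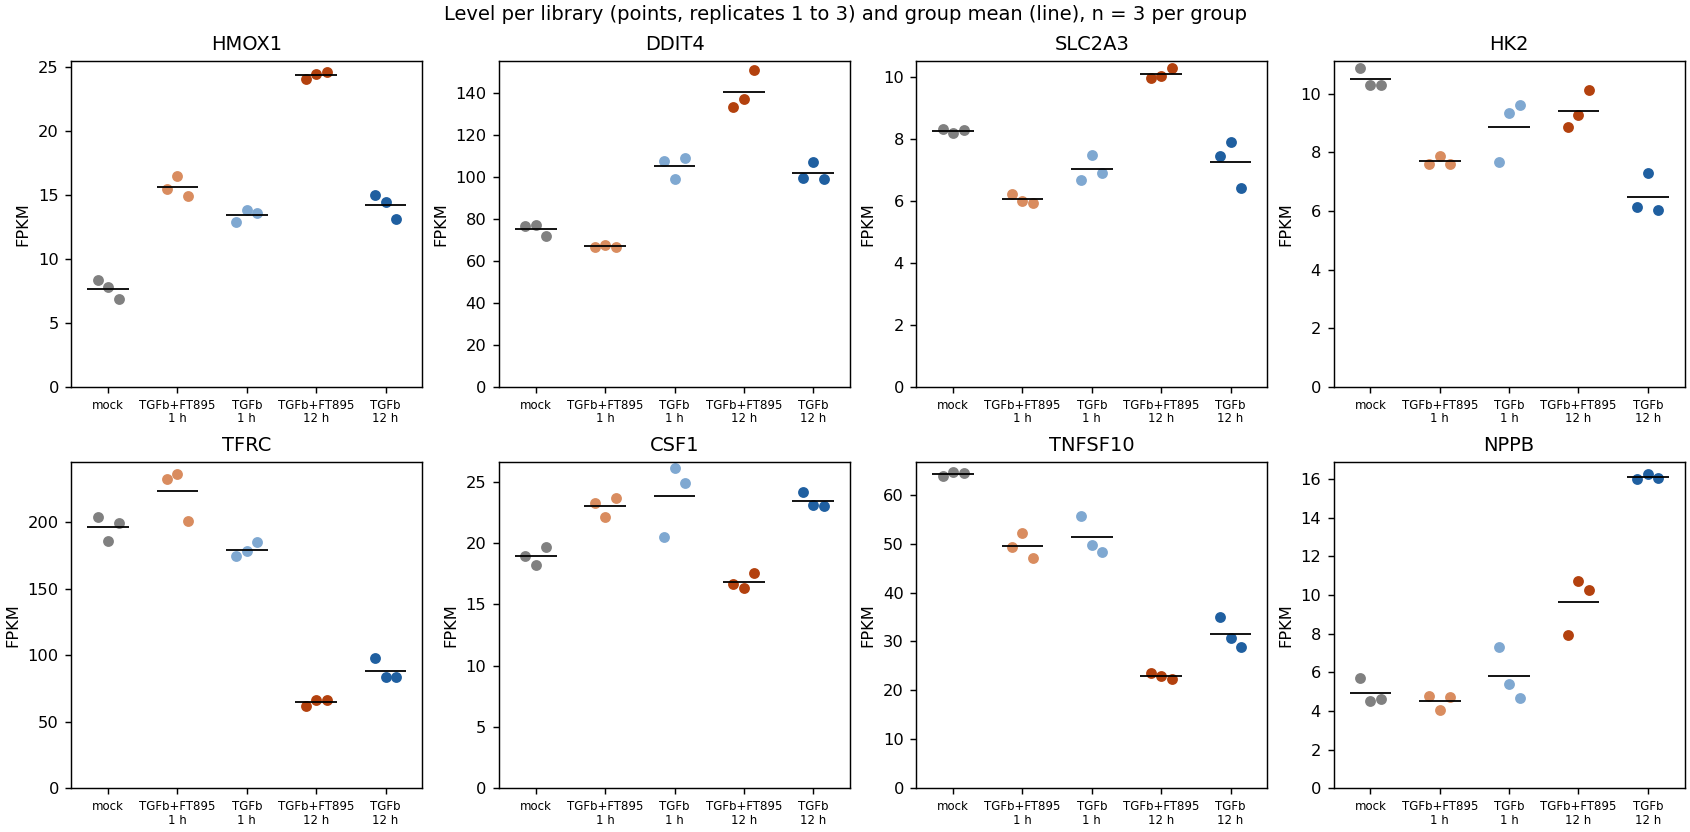
FPKM of 8 genes (vertical axes, linear from 0) in each library (points, replicates 1 to 3) of the 5 groups, with the group mean as a line. At 12 h the FT895 libraries of HMOX1, DDIT4, SLC2A3 and HK2 lie above those of TGFb alone and those of TFRC, CSF1, TNFSF10 and NPPB below; only HMOX1 and DDIT4 were called.

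The 24 genes with an adjusted p between 0.05 and 0.1 did not pass the test, and their values are given as they stand. In the limma fit of the 6 libraries alone CSF1 had an adjusted p of 0.0833, and the others lay between 0.187 and 0.282. The adjusted p-values below are of the fit of 15 libraries. Several belong to glucose and glycogen metabolism. SLC2A3, a high-affinity glucose transporter, had 9.97, 10.03 and 10.3 FPKM with FT895 and 7.46, 7.91 and 6.43 with TGFb alone (log2 change 0.43, adjusted p = 0.0516). HK2, the inducible hexokinase, had 8.87, 9.26 and 10.1 FPKM with FT895 and 6.13, 7.29 and 6.02 with TGFb alone (log2 change 0.48, adjusted p = 0.0552). PFKFB4, which sets the level of the sugar phosphate that activates phosphofructokinase, had 22.3, 23.3 and 24.3 FPKM with FT895 and 17.05, 18.9 and 18.6 FPKM with TGFb alone (log2 change 0.34, adjusted p = 0.0574). In these 3 genes every FT895 library was above every TGFb library. PPP1R3C, which brings a phosphatase to glycogen and favours its synthesis, averaged 10.2 ± 0.786 FPKM with FT895 and 7.31 ± 0.424 with TGFb alone (log2 change 0.43, adjusted p = 0.0552), whereas GBE1, the glycogen branching enzyme, averaged 23.6 ± 0.0748 FPKM with FT895 and 28.3 ± 0.635 with TGFb alone (log2 change -0.25, adjusted p = 0.082). PLIN2, the coat protein of lipid droplets, averaged 23.7 ± 0.993 FPKM with FT895 and 18.2 ± 0.453 with TGFb alone (log2 change 0.36, adjusted p = 0.0585). TXNIP, an inhibitor of glucose uptake and of thioredoxin, averaged 60.8 ± 1.80 FPKM with FT895 and 51.1 ± 0.921 with TGFb alone (log2 change 0.25, adjusted p = 0.082).

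The other genes above TGFb alone in this range were ODC1, the first enzyme of polyamine synthesis (23.9 FPKM with FT895 and 17.98 with TGFb alone), the vasodilator peptide gene ADM (8.15 FPKM with FT895 and 4.99 with TGFb alone), the endosomal GTPase RAB20 (8.05 FPKM with FT895 and 5.70 with TGFb alone), the ubiquitin ligase adaptor KCTD11 (48.4 FPKM with FT895 and 40.2 with TGFb alone), BCS1L, an assembly factor of respiratory complex III (13.95 FPKM with FT895 and 10.6 with TGFb alone), the ATP-gated channel P2RX5 (6.49 FPKM with FT895 and 3.86 with TGFb alone) and the clock repressor CIART (4.02 FPKM with FT895 and 2.52 with TGFb alone). Their log2 changes ran from 0.26 to 0.63. Among the 11 genes below TGFb alone, 4 encode ligands, peptides or carriers that act outside the cell. CSF1, the growth factor of macrophages, had 16.6, 16.3 and 17.6 FPKM with FT895 and 24.1, 23.1 and 22.98 with TGFb alone (log2 change -0.45, adjusted p = 0.0516). TNFSF10, the death ligand TRAIL, had 23.6, 22.96 and 22.3 FPKM with FT895 and 35.1, 30.6 and 28.8 FPKM with TGFb alone (log2 change -0.43, adjusted p = 0.0516). NPPB, which encodes the natriuretic peptide BNP, had 7.94, 10.7 and 10.2 FPKM with FT895 and 15.997, 16.3 and 16.1 FPKM with TGFb alone (log2 change -0.70, adjusted p = 0.0812). IGFBP3, a carrier of insulin-like growth factors, had 511, 547 and 562 FPKM with FT895 and 666, 652 and 656 FPKM with TGFb alone (log2 change -0.29, adjusted p = 0.0552). In these 4 genes the groups did not overlap, and the values of NPPB were the more scattered in the FT895 group. Lower means were also seen in CYP1B1, a cytochrome P450 (1.41 FPKM with FT895 and 2.38 with TGFb alone), the epithelial transcription factor ELF3 (10.2 FPKM with FT895 and 12.8 with TGFb alone), the stress granule protein G3BP1 (29.02 FPKM with FT895 and 36.5 with TGFb alone), the cholesterol ester hydrolase NCEH1 (39.3 FPKM with FT895 and 47.4 with TGFb alone) and SPAG4 (10.3 FPKM with FT895 and 13.4 with TGFb alone).

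Replicate 1 of TGFb 1 h is not part of the contrast but enters the shared estimate of the spread. Without it the test called 44 genes, 23 higher and 21 lower, among them 24 of the 26 with an adjusted p under 0.1. HMOX1 and DDIT4 stayed called (adjusted p = 3.61e-04 and 0.00398), and SLC2A3, HK2, PFKFB4, TFRC, CSF1, TNFSF10, NPPB and IGFBP3 were called as well. Without replicate 3 of TGFb 1 h the count was 15, without replicate 2 of TGFb 1 h 6, and without replicate 2 of TGFb 12 h 5. It was 4 without replicate 3 of TGFb+FT895 1 h, 3 without replicate 2 of TGFb+FT895 12 h or replicate 3 of mock, and 1 (HMOX1) without replicate 1 or 3 of TGFb 12 h or replicate 3 of TGFb+FT895 12 h. Under median-of-ratios scaling 3 of 7 calls were higher, and under quantile normalization 3 of 5, where all 2 were higher under the deposited scaling.

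Hypoxia genes, which HIF transcription factors switch on when oxygen is scarce, were found both above and below TGFb alone. DDIT4 was the only called member. With the unadjusted p under 0.05, 9 higher and 3 lower of 26 members differed, against 3.78% and 2.37% of all genes, and the median log2 change was 0.093, against 0.0095 over all genes. The higher members included INSIG2, a brake on sterol synthesis, with 11.6 FPKM with FT895 and 8.72 with TGFb alone (log2 change 0.39, adjusted p = 0.364). HILPDA, which slows lipolysis at lipid droplets, had 19.1, 21.4 and 20.4 FPKM with FT895 and 13.2, 13.99 and 14.2 with TGFb alone (log2 change 0.52, adjusted p = 0.141). The lower members were CA9, a carbonic anhydrase and standard hypoxia marker, with 5.91 FPKM with FT895 and 7.41 with TGFb alone (log2 change -0.28), the mitophagy receptor BNIP3 with 121 FPKM with FT895 and 135 with TGFb alone (log2 change -0.16) and the collagen crosslinker LOX with 102 FPKM with FT895 and 113 with TGFb alone (log2 change -0.15). None of these 5 genes was called.

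Glycolysis genes lay on both sides of TGFb alone. None of the 24 tested members was called, and the median log2 change was -0.043. At the unadjusted p 5 were higher and 4 lower, against 3.78% and 2.37% of all genes. The higher ones were the transporter SLC2A3, HK2, the phosphofructokinase PFKM (30.4 FPKM with FT895 and 25.9 with TGFb alone, log2 change 0.23) and the regulators PFKFB4 and PFKFB3 (79.8 FPKM with FT895 and 68.2 with TGFb alone, log2 change 0.22). The lower ones were mostly of the later steps: PGK1 (372 FPKM with FT895 and 415 with TGFb alone, log2 change -0.16), PGAM1 (563 FPKM with FT895 and 632 with TGFb alone, log2 change -0.16) and LDHA (986 FPKM with FT895 and 1087 with TGFb alone, log2 change -0.14), together with the liver-type phosphofructokinase PFKL (74.2 FPKM with FT895 and 81.05 with TGFb alone, log2 change -0.12). Fatty acid oxidation had 0 called genes of 30, 2 higher and 0 lower at the unadjusted p. Its entry enzyme CPT1A had 3.67, 3.24 and 3.24 FPKM with FT895 and 2.91, 3.08 and 2.65 with TGFb alone (log2 change 0.18, adjusted p = 0.812). Nuclear genes of oxidative phosphorylation (0 higher and 0 lower of 39, median -0.0034) and mitochondrially encoded genes (0 and 0 of 13, -0.017) had no member under an unadjusted p of 0.05.

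The log2 change was above 0 in 20 of 23 tested genes of the ATF4 pathway, in 15 of 20 enzymes of amino acid synthesis, in 15 of 20 cytosolic tRNA synthetases, in 21 of 22 ribosome biogenesis genes and in 20 of 24 heat shock genes. It was above 0 in 25 of 74 structural proteins of the cytosolic ribosome. These counts are descriptions, and the median log2 change over all genes tested, 0.0095, was also above 0. At most 39.1% of any of these lists passed the unadjusted p, against 3.78% of all genes in the higher direction and 2.37% in the lower. Of the 23 tested genes of the ATF4 pathway, the integrated stress response to amino acid shortage and unfolded protein, 1 was called (DDIT4), and at the unadjusted p 9 were higher and 0 lower (39.1%), with a median log2 change of 0.14. ATF4 itself averaged 271 FPKM with FT895 and 226 with TGFb alone (log2 change 0.27), and ASNS, asparagine synthetase, had 31.4, 34.7 and 36.4 FPKM with FT895 and 30.4, 26.7 and 27.4 with TGFb alone (log2 change 0.27, adjusted p = 0.474). The pseudokinase TRIB3 averaged 43.1 FPKM with FT895 and 38.3 with TGFb alone (log2 change 0.17). Enzymes of serine, one-carbon and amino acid synthesis had 7 higher and 0 lower of 20 members at the unadjusted p and a median of 0.078, including MTHFD2 of mitochondrial folate metabolism (57.4 FPKM with FT895 and 50.6 with TGFb alone, log2 change 0.18). ASNS, MTHFD2 and CTH, each higher at the unadjusted p, belong to both lists. Cytosolic tRNA synthetases, which load amino acids onto tRNA, had 6 higher and 0 lower of 20 and a median of 0.10, with FARSB at 16.1 FPKM with FT895 and 13.5 with TGFb alone (log2 change 0.24). Ribosome biogenesis genes had 8 higher and 0 lower of 22 and a median of 0.13. Their nucleolar members NCL (179 FPKM with FT895 and 161 with TGFb alone, log2 change 0.15), NOLC1 (80.02 FPKM with FT895 and 71.3 with TGFb alone, log2 change 0.17) and DKC1 (52.4 FPKM with FT895 and 45.6 with TGFb alone, log2 change 0.20) were among the higher ones. Heat shock genes had 7 higher and 0 lower of 24 and a median of 0.077, and the abundant chaperones HSPA8 (586 FPKM with FT895 and 525 with TGFb alone, log2 change 0.16) and HSP90AB1 (838 FPKM with FT895 and 769 with TGFb alone, log2 change 0.12) were in this group. HSPA5, the main chaperone of the endoplasmic reticulum, averaged 415 FPKM with FT895 and 359.6 with TGFb alone (log2 change 0.21, adjusted p = 0.501). In the last 4 lists and for HSPA5 no gene was called. The structural proteins of the cytosolic ribosome, 74 genes, had 0 higher and 0 lower and a median of -0.018.

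Inflammatory genes had the lowest median of the lists with at least 5 tested members, -0.11. None of the 29 was called, and at the unadjusted p 0 were higher and 10 lower (34.5%). Over all genes the shares were 3.78% higher and 2.37% lower. The chemokine CXCL8, which draws neutrophils, had 141, 151 and 184 FPKM with FT895 and 207, 202 and 203 with TGFb alone (log2 change -0.37, adjusted p = 0.218). CCL20, a chemokine for lymphocytes and dendritic cells, had 2.52, 2.70 and 3.27 FPKM with FT895 and 5.73, 5.27 and 4.30 FPKM with TGFb alone (log2 change -0.67, adjusted p = 0.111). NFKBIA, the feedback inhibitor of NF-kB, had 13.5, 13.999 and 13.4 FPKM with FT895 and 16.4, 16.6 and 16.2 FPKM with TGFb alone (log2 change -0.25, adjusted p = 0.102). In these 3 genes the FT895 libraries all lay below the TGFb libraries, as they did in 8 of the 29 and in 6.08% of all genes. The NF-kB subunits NFKB1 (13.2 FPKM with FT895 and 15.4 with TGFb alone, log2 change -0.20) and NFKB2 (34.003 FPKM with FT895 and 39.3 with TGFb alone, log2 change -0.20) were also lower, as were CSF1, CSF2, CXCL2, CCL2 and IRF1, whose log2 changes ran from -0.47 to -0.18. IL11, a secreted target of TGFb in the same list, had 87.4, 85.6 and 105 FPKM with FT895 and 95.5, 90.8 and 93.6 FPKM with TGFb alone and a change of -0.015 (95% interval -0.16 to 0.13). Interferon-stimulated genes had 0 higher and 2 lower of 25, TAP1 (9.68 FPKM with FT895 and 11.3 with TGFb alone) and GBP1 (6.59 FPKM with FT895 and 7.61 with TGFb alone). Early response genes had 2 higher and 1 lower of 28, with the transcription factor MAFF at 12.3 FPKM with FT895 and 9.52 with TGFb alone (log2 change 0.34, adjusted p = 0.111).

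Cholesterol synthesis and uptake had 0 called genes of 25, with a median log2 change of -0.067. At the unadjusted p 0 were higher and 5 lower, against 3.78% and 2.37% of all genes. IDI1, which makes the isoprenoid building block, averaged 37.2 FPKM with FT895 and 47.01 with TGFb alone (log2 change -0.33), and INSIG1, the sterol sensor partner, 45.3 FPKM with FT895 and 51.96 with TGFb alone (log2 change -0.20).

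**Figure D3:**
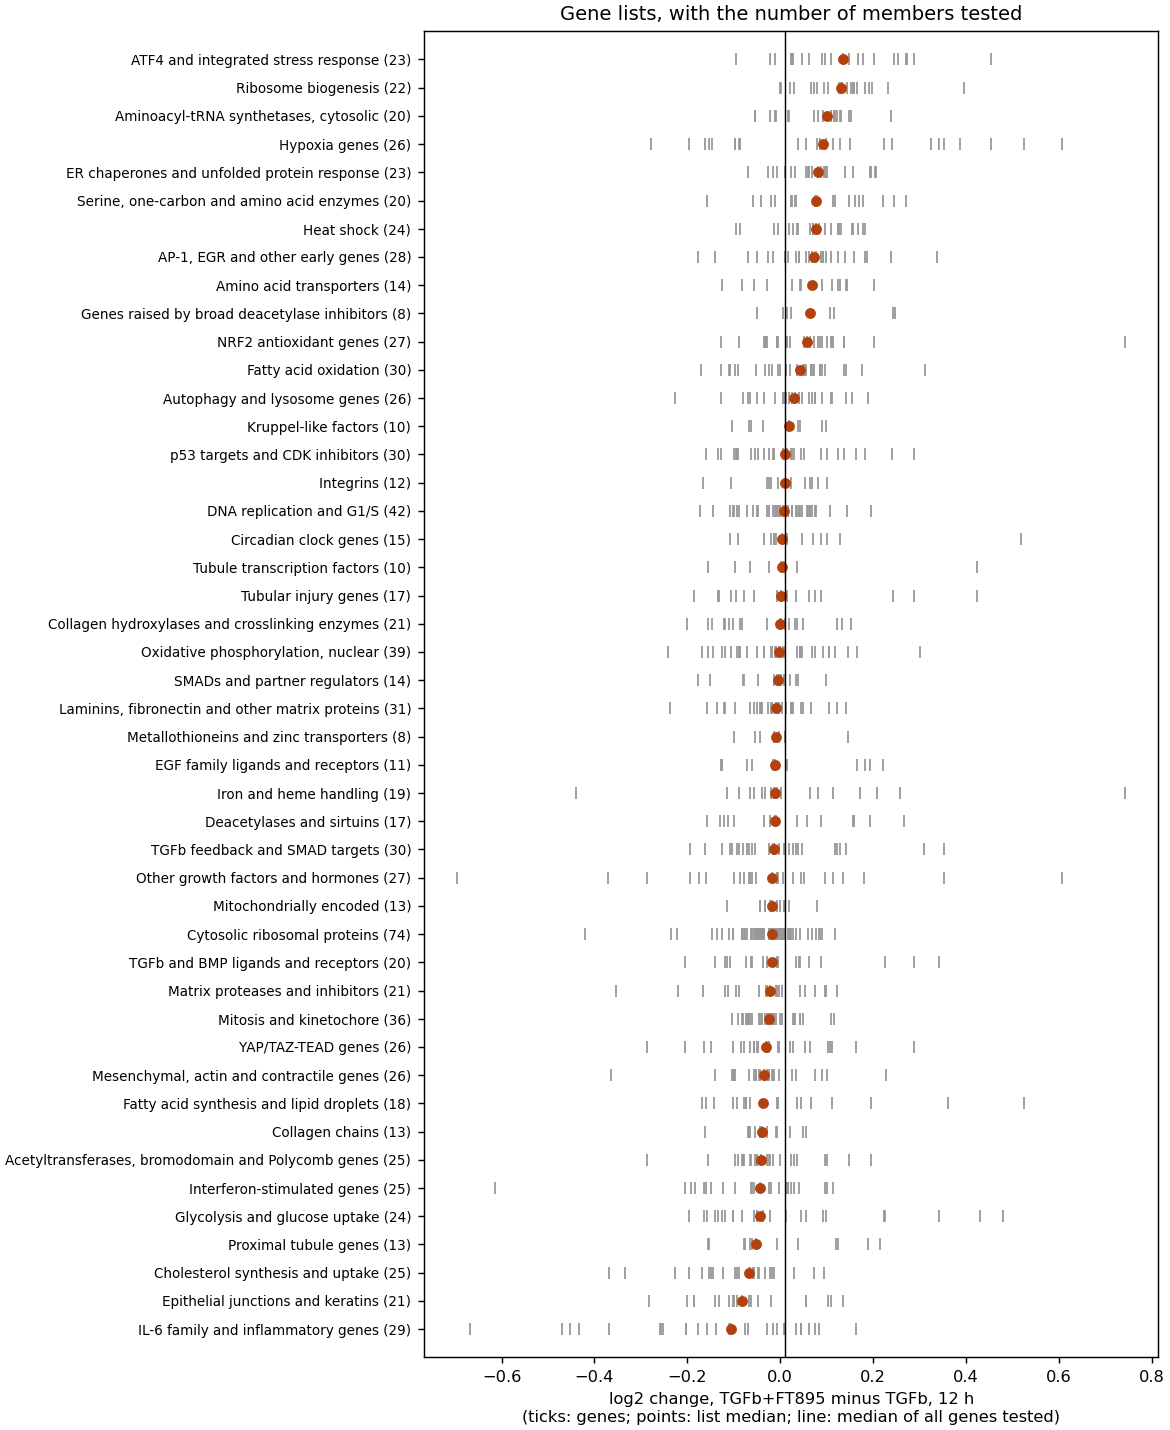
Log2 change with FT895 at 12 h (TGFb+FT895 minus TGFb, horizontal axis) of every tested member of the gene lists with at least 5 tested members, cell type markers left out (ticks), with the list median (points) and the median of all genes (vertical line); the number of tested members follows each name. These list medians lie between -0.11 for inflammatory genes and 0.14 for ATF4 genes, and HMOX1 stands apart in the NRF2 and the iron and heme lists.

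None of the landmark genes of the TGFb response described here was called. COL1A1, the main chain of fibrillar collagen, had 40.2, 40.2 and 41.1 FPKM with FT895 and 45.1, 45.9 and 45.2 FPKM with TGFb alone, with 2.44 in mock. The FT895 libraries of COL1A1 all lay below the TGFb libraries, but the 95% interval of the log2 change, -0.35 to 0.027 around -0.16, included 0. That interval rests on the spread within all 5 groups, which for COL1A1 takes in mock and 1 h libraries at 2.24 to 3.30 FPKM. At 12 h the SD was 0.497 FPKM with FT895 and 0.452 with TGFb alone. Fitted to the 6 libraries alone, limma gave COL1A1 an adjusted p of 0.416. That value is adjusted over all genes, so it cannot be set beside the unadjusted interval. The unadjusted interval of COL1A1 in the 6 libraries alone is not given here. FN1, fibronectin, averaged 1746 ± 20.4 FPKM with FT895 and 1688 ± 44.6 with TGFb alone, with the wide interval of -0.31 to 0.41. The shared spread of FN1 takes in TGFb 1 h, where the libraries had 740, 1451 and 1309 FPKM. CTGF (now CCN2), a matricellular growth factor, averaged 246 ± 19.8 FPKM with FT895 and 241 ± 5.78 with TGFb alone (-0.095 to 0.15), and COL4A1 of basement membrane 404 ± 8.35 FPKM with FT895 and 416 ± 10.7 with TGFb alone (-0.23 to 0.15). The feedback inhibitor SMAD7 averaged 19.6 ± 0.718 FPKM with FT895 and 20.8 ± 0.959 with TGFb alone (-0.20 to 0.034). SNAI1, a repressor of epithelial genes, had 31.9, 30.8 and 32.8 FPKM with FT895 and 26.3, 30.3 and 29.8 with TGFb alone (log2 change 0.14, 95% interval -0.043 to 0.33). Vimentin and N-cadherin, the mesenchymal filament and junction proteins, differed by 0.034 (VIM, 95% interval -0.10 to 0.17) and -0.0019 (CDH2, 95% interval -0.11 to 0.11).

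The lists of the TGFb response described here held no called gene either. Of 30 feedback and SMAD target genes 2 were higher and 1 lower at the unadjusted p, with a median log2 change of -0.014: ID1, which blocks DNA binding by helix-loop-helix proteins (40.7 FPKM with FT895 and 32.6 with TGFb alone, log2 change 0.31), ANGPTL4, an inhibitor of lipoprotein lipase (41.02 FPKM with FT895 and 31.5 with TGFb alone, log2 change 0.35) and PDGFB, a growth factor (55.1 FPKM with FT895 and 63.2 with TGFb alone, log2 change -0.19). The ligand TGFB2 averaged 114 FPKM with FT895 and 132 with TGFb alone (log2 change -0.21, adjusted p = 0.183). Of 13 collagen chains 0 were higher and 0 lower, with a median of -0.039. Collagen hydroxylases and crosslinking enzymes had 1 higher and 2 lower of 21, with PLOD2, a lysyl hydroxylase, at 238 FPKM with FT895 and 274 with TGFb alone (log2 change -0.20). Mesenchymal, actin and contractile genes had 1 higher and 1 lower of 26. Epithelial junction and keratin genes had a median of -0.083, with 0 higher and 3 lower of 21 (14.3%, against 2.37% of all genes). The FT895 libraries all lay below the TGFb libraries in 9 of the 21 (6.08% of all genes) and all above in 2 (7.83%). JUP, plakoglobin, averaged 21.9 FPKM with FT895, 26.9 with TGFb alone and 17.7 in mock (log2 change with FT895 -0.28). F11R, a tight junction adhesion protein, averaged 20.9 FPKM with FT895, 24.1 with TGFb alone and 22.7 in mock (log2 change -0.20). KRT7 averaged 87.5 FPKM with FT895, 99.7 with TGFb alone and 33.3 in mock (log2 change -0.19). Matrix proteases and inhibitors had 1 higher and 2 lower of 21, among them PLAU, urokinase (207 FPKM with FT895 and 241 with TGFb alone, log2 change -0.22). PAX8, the transcription factor of tubule identity, averaged 25.3 ± 1.90 FPKM with FT895 and 25.1 ± 1.10 with TGFb alone, and KLF15 was listed at 0 in all 15 libraries. None of these genes was called, and a p above the threshold does not show that a level was the same.

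**Figure D4:**
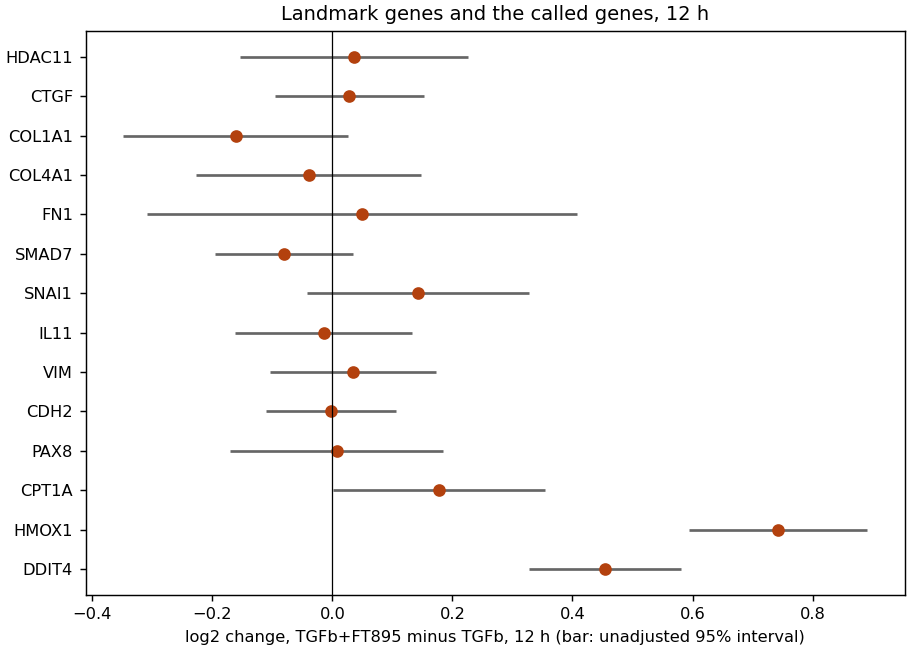
Log2 change with FT895 at 12 h (TGFb+FT895 minus TGFb, horizontal axis; points) with its unadjusted 95% interval (bars) for 12 landmark genes and the called genes HMOX1 and DDIT4, from limma on 15 libraries. The interval of every landmark shown but CPT1A takes in 0, and those of HMOX1 (95% interval 0.59 to 0.89) and DDIT4 (95% interval 0.33 to 0.58) do not.

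The target of the inhibitor was expressed at a low level. HDAC11 (chromosome 3, 13479724 to 13506424, plus strand, GRCh38) had 2.59, 2.66 and 2.96 FPKM with FT895 and 2.31, 3.02 and 2.63 with TGFb alone, and the groups overlapped (log2 change 0.036, 95% interval -0.15 to 0.23). FT895 acts on the enzyme, so the transcript is no check of the treatment. Deacetylases and sirtuins had 0 higher and 0 lower of 17, and 1 of 8 tested genes raised by broad deacetylase inhibitors, TXNIP, had an unadjusted p under 0.05. Acetyltransferases, bromodomain and Polycomb genes had 1 higher, KAT2A (10.1 FPKM with FT895 and 8.72 with TGFb alone), and 1 lower, DNMT3A (3.62 FPKM with FT895 and 4.66 with TGFb alone), of 25. Cell cycle genes were close between the groups: 2 higher and 0 lower of 42 for DNA replication and G1/S, 0 and 0 of 36 for mitosis, and 2 and 0 of 30 for p53 targets and CDK inhibitors.

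The FT895 difference was not the same at both times in 21 genes. At 1 h the same model called 9 genes (0.0722%), all lower with FT895, while at the unadjusted p 1376 genes were higher and 344 lower. Of the 9, 8 had a change above 0 at 12 h. The test of the 12 h change minus the 1 h change gave these 21 calls (0.168%), 18 of them positive and 3 negative. In 17 the change was above 0 at 12 h and below 0 at 1 h, in 3 it was below 0 at 12 h and above 0 at 1 h, and HMOX1 was above 0 at both. Of the 21 genes, 2 were called at 12 h and 8 at 1 h. Genes picked for a large difference between times tend to have opposite signs, so the sign counts are descriptions. A total of 7 of the 21 are in the hypoxia list, which held 26 of the 12467 genes tested. That list had a median change of 0.093 at 12 h and -0.17 at 1 h. PFKFB4 had 10.97, 11.05 and 10.96 FPKM with FT895 at 1 h and 16.8, 17.7 and 19.5 with TGFb alone (log2 change -0.66, adjusted p = 1.56e-04), while its 12 h change was 0.34. PPP1R3C also had opposite signs, with 3.48, 3.45 and 3.32 FPKM with FT895 at 1 h and 7.03, 6.90 and 5.89 with TGFb alone (log2 change -0.78, adjusted p = 1.62e-04). The 12 h changes of PFKFB4 and PPP1R3C were not called (adjusted p = 0.0574 and 0.0552). TFRC had 233, 237 and 201 FPKM with FT895 at 1 h and 175, 178 and 185 with TGFb alone (log2 change 0.31, adjusted p = 0.151), opposite to its 12 h change of -0.44. The 1 h groups include replicate 1 of TGFb 1 h. Without it the 12 h minus 1 h test called 28 genes, 23 positive and 5 negative, including all 21 of those above. The count was 8 without replicate 2 of TGFb+FT895 1 h, 13 without replicate 1 or without replicate 2 of TGFb 12 h, and 10 without replicate 3 of TGFb+FT895 12 h. The 1 h count was 18 without replicate 2 of TGFb 1 h (8 higher and 10 lower) and 19 without replicate 1 of TGFb 12 h (9 higher and 10 lower), against 5 without replicate 3 of TGFb 1 h or replicate 1 of TGFb+FT895 1 h and 4 without replicate 2 of TGFb+FT895 1 h, all of them lower.

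**Figure D5:**
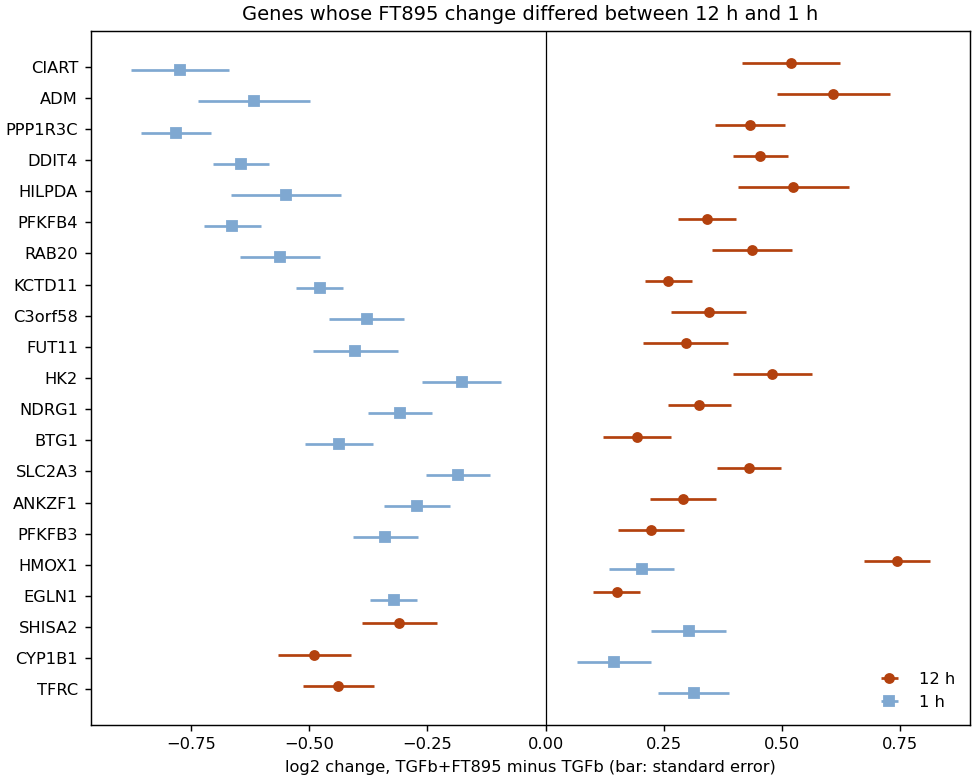
Log2 change with FT895 (TGFb+FT895 minus TGFb, horizontal axis) at 12 h (circles) and at 1 h (squares), with standard errors, for the 21 genes whose change differed between the times. In 17 genes the 12 h change is above 0 and the 1 h change below it, in CYP1B1, SHISA2 and TFRC the reverse, and HMOX1 is above 0 at both.

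Promoters of 3 genes whose FT895 change differed between the times are shown, because they let the sequence be set beside a change of either sign. DDIT4 and PFKFB4 were above TGFb alone at 12 h and TFRC below. Each run covers 250 bases before to 50 after the start of transcription, from RefSeq on GRCh38.p14. Capitals mark ACGTG or GCGTG, the letters of the short core at which HIF binds, and neither overlaps the other here. Both strands were searched. The DDIT4 window lies at chr10:72273674-72273973, plus strand, the PFKFB4 window at chr3:48556754-48557053, minus strand, and the TFRC window at chr3:196082041-196082340, minus strand; each is written 5′ to 3′ along the gene's strand.
DDIT4: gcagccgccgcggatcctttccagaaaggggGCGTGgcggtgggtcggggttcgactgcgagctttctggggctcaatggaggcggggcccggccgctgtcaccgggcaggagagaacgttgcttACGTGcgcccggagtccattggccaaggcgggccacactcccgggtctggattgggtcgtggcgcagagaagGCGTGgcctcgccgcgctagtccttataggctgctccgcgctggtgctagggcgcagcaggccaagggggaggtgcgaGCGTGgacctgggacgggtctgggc
PFKFB4: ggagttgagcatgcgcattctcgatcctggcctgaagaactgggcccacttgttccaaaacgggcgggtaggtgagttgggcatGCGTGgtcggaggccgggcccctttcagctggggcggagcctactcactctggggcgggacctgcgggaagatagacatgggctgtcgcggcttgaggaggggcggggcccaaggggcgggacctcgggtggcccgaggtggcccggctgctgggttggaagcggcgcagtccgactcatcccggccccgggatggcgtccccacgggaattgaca
TFRC: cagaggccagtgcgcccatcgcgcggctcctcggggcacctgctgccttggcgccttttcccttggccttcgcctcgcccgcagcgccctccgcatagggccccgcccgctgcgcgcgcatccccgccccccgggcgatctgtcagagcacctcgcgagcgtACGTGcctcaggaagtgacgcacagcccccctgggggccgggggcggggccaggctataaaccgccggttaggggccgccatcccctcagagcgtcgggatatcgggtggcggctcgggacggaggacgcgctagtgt
The DDIT4 window held 1 ACGTG and 3 GCGTG, the PFKFB4 window 1 GCGTG and the TFRC window 1 ACGTG. Of the 13 genes among the 21 that matched the promoter table, 7 held ACGTG (53.8%) and 6 held GCGTG (46.2%). The shares among the 9214 promoters of tested genes were 27.5% and 52.1%, and among all 35116 promoters of this length 21.4% and 36.5%. These letters are common, and a match is a description of the window, not a site.

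Set against mock cells, both 12 h groups differed in many more genes than they did from each other. TGFb+FT895 at 12 h differed from mock in 4674 genes (37.5%), and TGFb alone in 4814 (38.6%); the comparisons share the mock libraries, and the TGFb libraries also serve in the FT895 comparison. HMOX1 averaged 24.4 ± 0.258 FPKM with FT895, 14.2 ± 0.963 with TGFb alone and 7.69 ± 0.738 in mock, so that FT895 lay further from mock. DDIT4 was in the same order, 140.3 ± 9.31, 102 ± 4.55 and 75.3 ± 2.88 FPKM. TFRC was lowest with FT895, 64.8 ± 2.53 FPKM, with 88.4 ± 8.27 with TGFb alone and 197 ± 9.63 in mock, and TNFSF10 likewise, 22.97 ± 0.649, 31.5 ± 3.23 and 64.3 ± 0.451. By their means CSF1 and NPPB lay nearer to mock with FT895, CSF1 below it: CSF1 averaged 16.8 ± 0.638 FPKM with FT895, 23.4 ± 0.64 with TGFb alone and 18.9 ± 0.735 in mock, and NPPB 9.64 ± 1.49, 16.1 ± 0.144 and 4.95 ± 0.674. PFKFB4 averaged 23.3 ± 0.973 FPKM with FT895, 18.2 ± 1.00 with TGFb alone and 18.5 ± 0.293 in mock, so that TGFb alone and mock were close. Mock cells differ from the 12 h cells in time in culture and in solvent as well as in TGFb.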

How the data were processed

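Polyadenylated RNA was sequenced in 15 libraries, 3 in each of 5 groups. Per the submitters' processing notes, the genome build was GRCh38 and the tools were HISAT2, an aligner, and StringTie, a transcript quantifier. Their versions and the strandedness are not stated in the sources, so reads of overlapping or antisense genes cannot be told apart. The authors deposited FPKM, 1 column per library, and no per-library column was left unused. Read depth is unknown: among 693 to 807 loci under 0.1 FPKM per replicate pair, the fullest bin of log2 ratios (width 0.02) held 1.59 to 2.76%, so no read unit could be read. No counting interval is given for that reason. Symbols and coordinates are those of GENCODE v29, which matched all 19974 Ensembl identifiers; 931 of the 12467 tested loci are unannotated.

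Values were analysed as log2(FPKM + 1), which understates changes of low genes, with 1 mean per group in limma 3.58.1 under R 4.3.3 (mean-variance trend, 10 residual degrees of freedom). Tests were two-sided. Described genes are landmarks, called genes and members of 51 gene lists with the smallest p (103 by rule). A further 74 were added after their values were seen, among them the genes called in the time test that no rule had named. A few further list members are also described. The members, lists and rules were chosen with earlier results of these data known. Lists are described by counts and medians and were not tested. The alternatives covered the libraries fitted, pseudocount, filter, scaling, prior, library weights, a replicate block and each library left out. A few genes of these lists are not reported here.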

Additional observations from a re-analysis of the deposited data

Results flagged for a closer look

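The FT895 difference at 12 h differed from that at 1 h, by a test of the difference itself (limma, Benjamini-Hochberg adjustment over 12467 genes), in 21 genes. The difference is given as the 12 h log2 change minus the 1 h log2 change. The widest were CIART (1.29, adjusted p = 9.10e-04), ADM (1.22, adjusted p = 0.00642), PPP1R3C (1.21, adjusted p = 4.85e-05), DDIT4 (1.10, adjusted p = 2.67e-05), HILPDA (1.07, adjusted p = 0.0137), PFKFB4 (1.00, adjusted p = 4.85e-05) and RAB20 (1.00, adjusted p = 0.00148). Smaller positive values were those of KCTD11 (0.74), C3orf58 (0.72), FUT11 (0.70), HK2 (0.66), NDRG1 (0.63), BTG1 (0.63), SLC2A3 (0.62), ANKZF1 (0.56), PFKFB3 (0.56), HMOX1 (0.54) and EGLN1 (0.47). Negative values were those of TFRC (-0.75, adjusted p = 0.00704), CYP1B1 (-0.63, adjusted p = 0.0356) and SHISA2 (-0.61, adjusted p = 0.0465). HMOX1, with changes of 0.74 at 12 h and 0.20 at 1 h, was the one with the same sign at both times.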

How the results depend on the processing

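HMOX1 was called at 12 h under every alternative except the replicate block on the 6 libraries alone (adjusted p = 0.194, log2 change 0.74), and DDIT4 kept its direction under all of them. The 12 h count, 2 in the model of 15 libraries, was 1 with the 6 libraries alone, 6 with a pseudocount of 0.1, 7 with a pseudocount of 5, 14 without a filter, 14 with a minimum of 5 FPKM, 7 with median-of-ratios scaling, 5 with quantile normalization, 6 with a robust prior, 59 with library weights and 11 with Ensembl loci only. Leaving out 1 library gave 1 to 44 calls at 12 h, 4 to 19 at 1 h (9 in the model of 15) and 8 to 28 for the 12 h change minus the 1 h change (21 in the model of 15). With a replicate block the 12 h count was 1, and 0 on the 6 libraries alone (limma; 863 genes with an unadjusted p under 0.05); DDIT4 was not called in either (adjusted p = 0.0571 and 0.438). Same-numbered 12 h libraries deviated from their group means with correlations of 0.037, -0.033 and 0.052. These values show no shared deviation, but they cannot tell whether same-numbered libraries were paired, and the labels do not say. At 1 h, median-of-ratios scaling gave 16 calls, all lower as in the model of 15, and library weights 1974, 1434 of them higher and 540 lower, and library weights gave 59 for the difference between times. Without the 3 mock libraries, an alternative added after seeing the data, the counts were 1 at 12 h and 11 for the difference between times. The causes of these shifts were not tested.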
